A study of Mus musculus with 8 samples.

Results

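Dystrophin, its sarcolemmal partner genes and the water channel gene Aqp4 were followed in the gastrocnemius, a calf muscle, of male WT mice at day 4. The set held 8 of the 25655 gene rows of the count table, taken as the rows named Dmd, Dag1, Dtna, Sgca, Sgcb, Sgcd, Sspn and Aqp4. The 5 control samples had been given 10% glycerol and the 3 sepsis samples cecal slurry, a suspension of gut contents that produces polymicrobial sepsis. Sex, genotype, tissue and day were the same in both groups. Whether each sample is a different animal is not stated in the labels, and p-values therefore reflect the spread between these 8 samples alone. The 8 genes had been chosen with their control and sepsis counts in view. Their differences between the groups are therefore described without p-values, which are given only for genes outside the set. Where calls of the 8 genes at the threshold of the test are given, they describe these genes and do not test them. All 8 passed the filter on low counts.

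The dystrophin complex links the actin cytoskeleton of a muscle fibre to the laminin of the basement membrane. Dystrophin (Dmd) binds actin inside the fibre and the transmembrane subunit of dystroglycan (Dag1), whose outer subunit binds laminin through sugar chains built by a series of glycosyltransferases. Sarcoglycans (among them Sgca, Sgcb and Sgcd) and sarcospan (Sspn) form a transmembrane subcomplex beside dystroglycan, and dystrobrevin (Dtna) and the syntrophins bind dystrophin on the inner face. Loss of dystrophin, of several sarcoglycans or of the glycosyltransferases causes muscular dystrophy. Aquaporin-4 (Aqp4) is the water channel of the sarcolemma of fast fibres and is held there through syntrophin.

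Reads came from the 3′ end of transcripts and were not corrected for length, so ratios and shares of reads between genes are set side by side across libraries and are not read as one gene's level against another's. Levels are in CPM, a gene's reads relative to the effective size of its library, which was set with trimmed means of M values (TMM). The libraries held 3086277 to 4016329 counts. Mitochondrial genes took 21.7 to 26.7% of counts in controls and 12.6 to 16.9% in sepsis, and the part of this difference in the results was not tested. The first principal component placed controls between -40.3 and -34.6 and septic libraries between 48.7 and 78.0. The chi-square per degree of freedom between libraries of a group was at most 6.86 in controls and reached 26.3 in sepsis. Pairs with control 1 lay at 4.95 to 6.86, and pairs of the other controls at 2.04 to 3.33. All 10 myofibre markers checked were read in both groups. In edgeR's test all 10 fell, where 25.2% of all genes tested did. With library totals alone 9 fell, where 1387 of 9810 genes tested did. The summed level of the 10 markers was 176210 to 206170 CPM in controls and 85994 to 108690 CPM in sepsis. In bulk tissue, fewer cells of a type and less RNA per cell cannot be told apart.

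Dmd, Dag1 and Dtna had higher levels in every septic library than in any control. Dmd (ENSMUSG00000045103) had 266, 265, 289, 282 and 286 CPM in controls 1 to 5 and 421, 385 and 296 CPM in sepsis 1 to 3. The groups did not overlap, although sepsis 3 lay only just above the highest control. Means ± SD are over 5 control and 3 septic libraries throughout. The mean was 278 ± 11.4 CPM (SD, n = 5) in controls and 368 ± 64.2 CPM (SD, n = 3) in sepsis, a log2 fold change of 0.40 (SE 0.12), or 1.32-fold. Dag1 (ENSMUSG00000039952), which encodes both subunits of dystroglycan, had 246, 278, 289, 302 and 276 CPM in controls and 455, 324 and 429 CPM in sepsis. Its lowest septic library was sepsis 2, and its log2 fold change was 0.53 (SE 0.12). Dtna (ENSMUSG00000024302), which encodes α-dystrobrevin, had 130, 132, 126, 122 and 109 CPM in controls and 167, 209 and 162 CPM in sepsis. Its highest septic library was sepsis 2, and its log2 fold change was 0.53 (SE 0.12). The septic libraries thus ranked differently in each of these genes. Their higher levels stood beside the fall of all 10 myofibre markers.

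**Figure D1:**
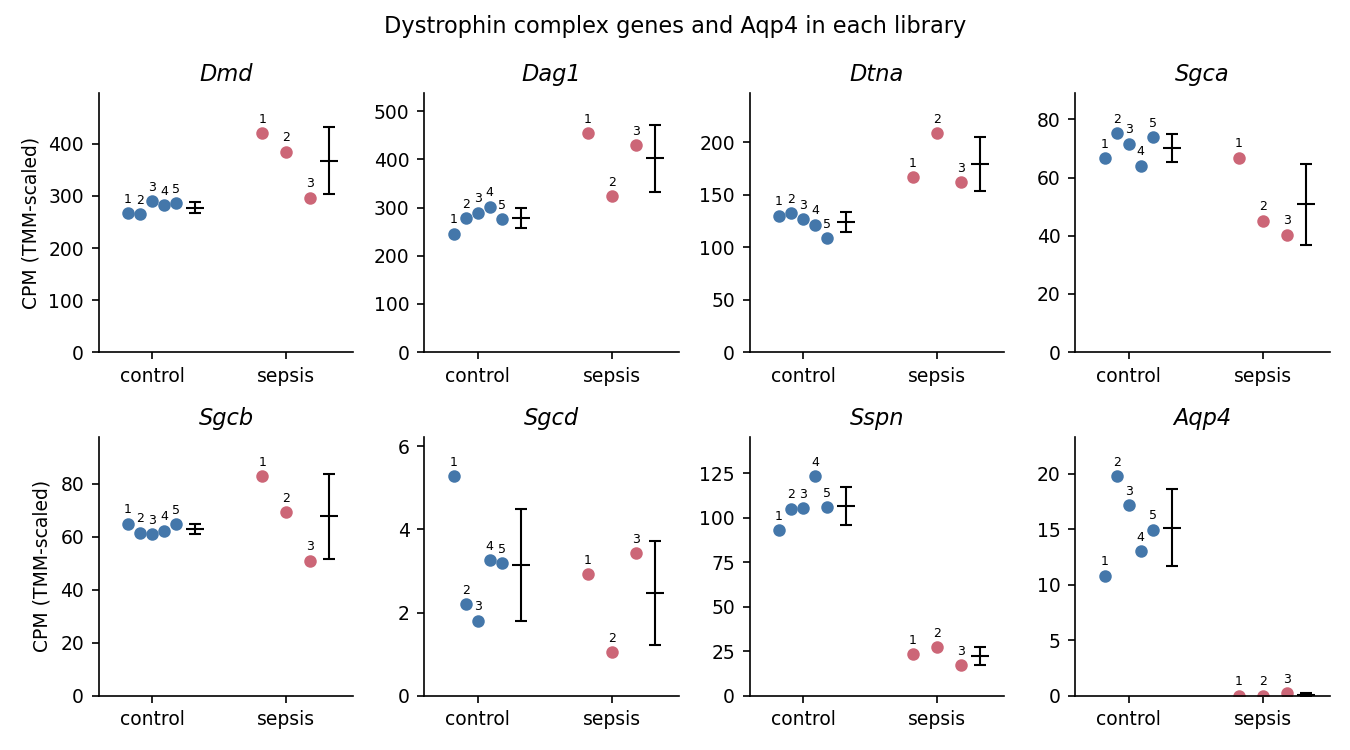
Level of each gene of the set in CPM (vertical axes, starting at 0) in 5 control and 3 septic libraries. Points are libraries labelled with their replicate number, and bars show mean ± SD; Dmd, Dag1 and Dtna lie above all controls in sepsis, Sspn and Aqp4 below, and Sgca, Sgcb and Sgcd overlap.

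The 3 sarcoglycan genes of the set overlapped between the groups. Sgca (ENSMUSG00000001508), encoding the muscle-restricted α-sarcoglycan, had 66.6, 75.3, 71.7, 64.0 and 73.9 CPM in controls and 66.8, 45.2 and 40.4 CPM in sepsis. Sepsis 1 lay within the control range and sepsis 2 and 3 below it. The log2 fold change was -0.47 (SE 0.16), and -0.72 without sepsis 1. Sgcb (ENSMUSG00000029156), encoding β-sarcoglycan, had 65.0, 61.5, 60.8, 62.2 and 64.7 CPM in controls and 82.7, 69.3 and 50.9 CPM in sepsis. Its septic libraries lay on both sides of a narrow control range, and the log2 fold change of 0.10 (SE 0.14) became -0.07 without sepsis 1. Sgcd (ENSMUSG00000020354), encoding δ-sarcoglycan, had 6 to 19 reads per control library and 5, 11 and 15 reads in sepsis, too few to place the groups apart. Its log2 fold change of -0.38 (SE 0.45) became 0.01 without sepsis 2.

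Sarcospan and aquaporin-4 were lower in every septic library. Sspn (ENSMUSG00000030255), a tetraspanin-like partner of the sarcoglycans, had 93.0, 105, 105, 123 and 106 CPM in controls and 23.4, 27.1 and 17.1 CPM in sepsis. The lowest control was well above the highest septic library, and the log2 fold change was -2.24 (SE 0.16), a 4.72-fold lower level. Aqp4 (ENSMUSG00000024411) had 39, 63, 57, 36 and 47 reads in controls 1 to 5, or 10.8 to 19.8 CPM. In sepsis 1 and 2 it had 0 reads, which at these depths allows up to 0.798 and 0.630 CPM, and in sepsis 3 it had 1 read. The control level was 195 times the septic level, and the exact 95% interval of that ratio ran from 34.7 to 7732, counting error only. Sspn was thus reduced but still read in all 3 septic libraries, whereas Aqp4 was at the detection limit.

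Read as edgeR calls, 3 genes of the set were higher and 3 lower. Of all 9810 genes tested, 25.2% were called higher and 25.2% lower. The groups did not overlap for 5 of the 8 genes, 3 higher and 2 lower, against 47.5% of all genes tested, 23.1% higher and 24.3% lower. Since this contrast chose the set, nothing is read from these counts, nor from whether a call of these genes is kept or lost. Scaled by library totals, Sgca was not called and Sgcb was called higher. The call of Dmd was lost without sepsis 1, with a log2 fold change of 0.29, and that of Sgca without control 2, control 5, sepsis 2 or sepsis 3.

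Scaling changed the size of all these differences. When libraries were scaled by their totals, the tested genes as a whole shifted upward, from a median log2 fold change of 0.01 to 0.43. Each gene of the set shifted with them. Dmd was then at 0.82, Dag1 at 0.94, Dtna at 0.96 and Sgcb at 0.52, while Sgca was at -0.06 and Sspn at -1.81. Sgcd changed sign, to 0.02. Relative to the median of all genes, the 7 genes other than Aqp4 kept their values. That follows from arithmetic, since a change of scaling moves all genes by nearly the same amount. Dmd was 0.39 above the median with TMM scaling and with library totals, and Sgca was 0.49 and 0.50 below it, respectively.

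**Figure D2:**
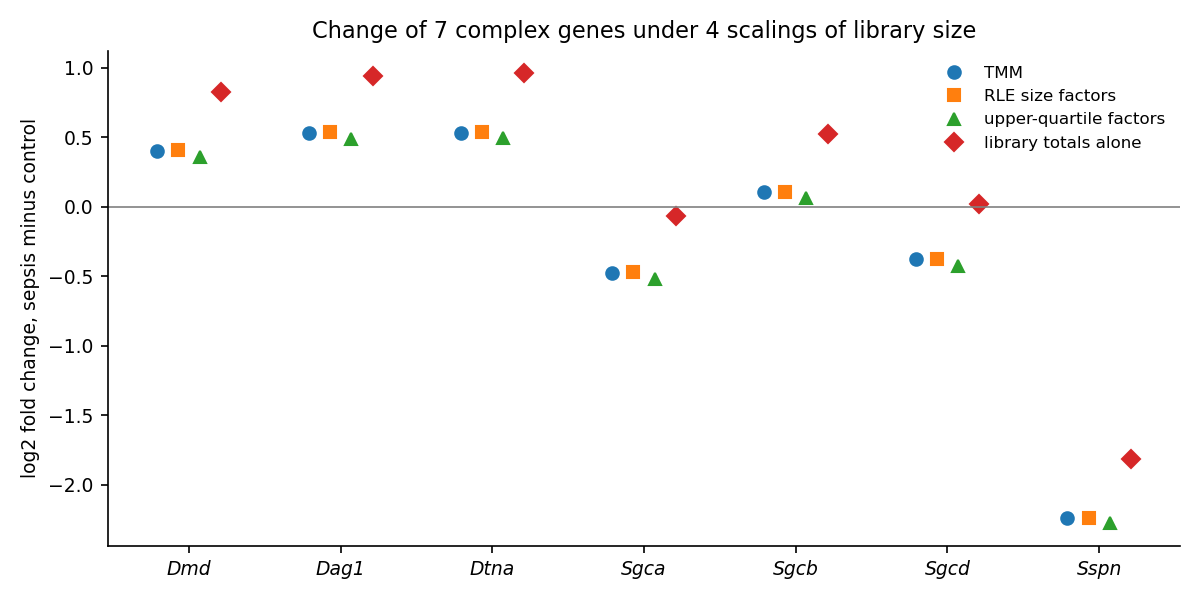
Log2 fold change, sepsis minus control (vertical axis), of the 7 genes other than Aqp4 under 4 ways of scaling library size, with 1 symbol per scaling. TMM, RLE and upper-quartile factors lie close together, and library totals alone shift each gene upward; Sgcd then crosses 0, from -0.38 to 0.02.

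A ratio of reads within a library needs no scaling factor, so each gene was also set against Dmd in its own library. Sgca had 22.7 to 28.4 reads per 100 Dmd reads in controls and 11.7 to 15.9 in sepsis. Sgcb had 21.0 to 24.4 in controls and 17.2 to 19.7 in sepsis. Both sarcoglycans were therefore lower relative to Dmd in every septic library, although sepsis 1 held the highest level of Sgcb in CPM. Sspn had 34.9 to 43.8 reads per 100 Dmd reads in controls and 5.56 to 7.03 in sepsis, and Aqp4 had 4.06 to 7.46 and 0 to 0.0770. Dag1, at 92.2 to 107 in controls and 84.1 to 145 in sepsis, and Dtna, at 37.9 to 49.9 and 39.6 to 54.7, overlapped between the groups. The ratio of Sgcd also overlapped. In all, 4 of these 7 genes lay lower relative to Dmd with no overlap, against 35.9% of all genes tested, and none lay higher, against 9.67% (45.6% in either direction). Because Dmd itself was chosen on the contrast, these ratios are descriptions too.

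**Figure D3:**
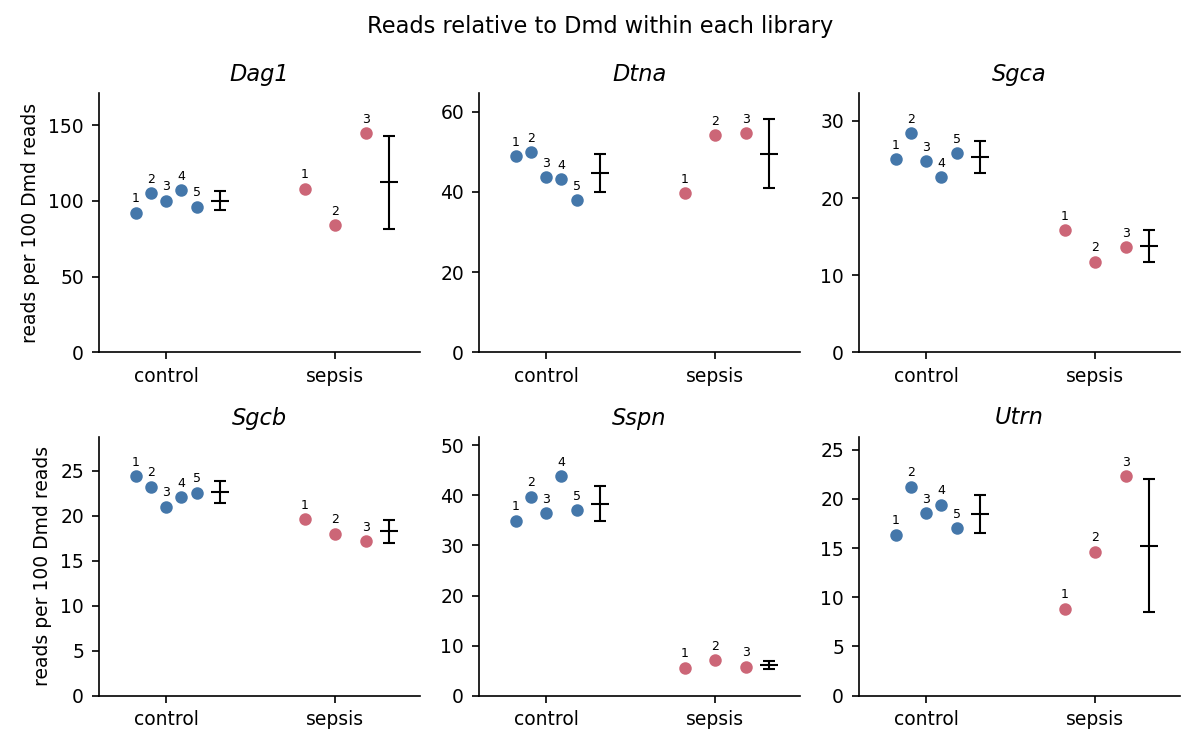
Reads per 100 Dmd reads of the same library (vertical axes, starting at 0) for 5 genes of the set and for Utrn. Points are the 5 control and 3 septic libraries with their replicate number, bars are mean ± SD; Sgca, Sgcb and Sspn lie lower in every septic library, and Dag1, Dtna and Utrn overlap.

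By the coefficient of variation, the septic libraries varied more than the controls in each gene of the set. Sgcd, with few reads in both groups, had 42.8% in controls and 50.8% in sepsis, against 31.3% and 31.1% from counting. Aqp4 had 23.0% in controls and 173% in sepsis, where counting alone also gives 173%. In controls the coefficient of variation of Dmd was 4.10%, near the 3.36% that counting alone gives, and in sepsis it was 17.5% against 2.52%. For Sgca it was 6.88% in controls, against 6.66% from counting, and 27.7% in sepsis. For Sgcb it was 2.98% in controls, below the 7.05% from counting, and 23.6% in sepsis. In controls the value lay above that from counting in Dag1 (7.53% against 3.36%), Dtna (7.58% against 5.02%) and Sspn (10.2% against 5.43%). Their septic values were 17.3%, 14.4% and 22.4%. With 5 control and 3 septic libraries, each SD rests on few values, and the excess over counting was not tested.

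What a count stands for differs between the genes. The GENCODE M21 annotation (GRCm38, an earlier build than the GRCm39 of the counts) was searched for last exons that overlap that of the longest transcript. All 3 coding transcripts of Dmd overlap there, from the 79-exon transcript of 14910 bases to a 17-exon transcript of 1858 bases. An overlap need not mean the same 3′ end. A 3′ end read of Dmd may therefore come from full-length dystrophin or from a short product such as Dp71, which starts near the end of the gene. Last exons likewise overlap in all 3 coding transcripts of Sspn and all 9 of Aqp4. For Dtna, 3 of 6 coding transcripts overlap the last exon of the longest, and for Dag1 4 of 6. The levels above do not separate such transcripts.

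Promoter sequences, the 250 bases before an annotated start, show where these transcripts begin. They come from RefSeq (GRCm38.p6), and the windows used cover 6 of the 8 genes. Dtna and Aqp4 are not among them, which does not mean that RefSeq lacks their starts. Shown are the 2 starts of Dmd among these windows, which lie 2.10 megabases apart and are counted under the same gene. That does not mean that Dmd has no other start. Dag1, a partner with a higher level in sepsis, and Sgca and Sspn, partners with a lower mean level, are shown with them. Dag1 and Sspn each have another annotated start in the table: for Dag1 the first listed is shown, and for Sspn the one that GENCODE also has. Capitals mark matches to the CArG box (the site of serum response factor), the MEF2 site, the MCAT element CATTCC or the MEF3 element TCAGGTT, on either strand.
Dmd, start of the full-length transcript, chrX:82948620-82948869, plus strand: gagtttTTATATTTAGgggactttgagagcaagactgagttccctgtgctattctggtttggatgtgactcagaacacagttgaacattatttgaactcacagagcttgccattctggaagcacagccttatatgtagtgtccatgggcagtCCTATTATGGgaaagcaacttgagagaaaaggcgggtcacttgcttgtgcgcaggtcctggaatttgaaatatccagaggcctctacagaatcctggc
Dmd, start of the short transcripts, chrX:85048045-85048294, plus strand: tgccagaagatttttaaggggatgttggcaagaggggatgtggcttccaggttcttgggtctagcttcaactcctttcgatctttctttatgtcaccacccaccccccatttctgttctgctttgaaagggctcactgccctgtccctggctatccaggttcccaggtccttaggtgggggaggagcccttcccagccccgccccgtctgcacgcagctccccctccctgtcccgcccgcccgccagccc
Dag1, chr9:108263959-108264208, minus strand: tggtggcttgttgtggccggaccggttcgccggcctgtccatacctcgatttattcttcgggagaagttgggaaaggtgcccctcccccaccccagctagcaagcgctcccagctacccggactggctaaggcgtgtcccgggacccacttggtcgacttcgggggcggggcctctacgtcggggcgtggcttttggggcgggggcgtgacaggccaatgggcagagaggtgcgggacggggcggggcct
Sgca, chr11:94976328-94976577, minus strand: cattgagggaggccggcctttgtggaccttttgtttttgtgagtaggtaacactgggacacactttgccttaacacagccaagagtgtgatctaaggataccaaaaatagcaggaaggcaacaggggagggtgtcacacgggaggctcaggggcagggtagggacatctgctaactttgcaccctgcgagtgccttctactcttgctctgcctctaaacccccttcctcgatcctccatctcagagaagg
Sspn, chr6:145933872-145934121, plus strand: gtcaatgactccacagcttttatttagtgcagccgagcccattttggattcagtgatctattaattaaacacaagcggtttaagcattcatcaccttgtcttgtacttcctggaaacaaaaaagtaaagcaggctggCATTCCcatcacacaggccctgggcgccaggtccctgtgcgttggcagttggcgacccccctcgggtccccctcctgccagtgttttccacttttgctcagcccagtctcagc
The full-length Dmd window held a MEF2 match from base -244 to -235 and a CArG match from -98 to -89, counted back from the start. Of 32851 windows of this length in the table, 2.92% held a MEF2 match and 1.47% a CArG match. The short-transcript window held neither, with a GC content of 60.0% against 45.2%. The Sspn window held an MCAT match from -113 to -108, a motif found in 12.6% of all windows, also in the Sspn window not shown, and neither the Dag1 nor the Sgca window held a marked motif. The Dag1 window was the richest in GC of those shown, at 67.6% with 21 CpG dinucleotides, against 52.8% and 4 for Sgca and 51.2% and 6 for Sspn. E-box matches (CANNTG), found in 66.2% of all windows, are not marked. A match describes the letters only.

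Among the other genes of the dystrophin complex the levels also went both ways. Of 19 listed, 14 had enough reads, of which 3 rose, 4 fell and 7 did not pass edgeR's quasi-likelihood test. Their median log2 fold change was -0.19, against 0.01 for all genes. For this and every list count below with TMM scaling, the background is 25.2% called higher and 25.2% lower over all genes tested. For counts with library totals alone, it is 4256 higher and 1387 lower of 9810 genes tested. Utrophin (Utrn), the autosomal relative of dystrophin, had 43.6, 56.2, 53.6, 54.6 and 48.8 CPM in controls and 37.2, 56.3 and 66.0 CPM in sepsis. The septic libraries spanned the control range (log2 fold change 0.06, SE 0.17, adjusted p 0.806). The sign turned when control 1 (-0.01) or sepsis 3 (-0.13) was left out, and scaling by library totals gave 0.48 at an adjusted p of 0.0354. The ankyrin gene Ank3, whose product anchors dystrophin at costameres, rose 2.91-fold from 208 ± 13.8 to 605 ± 93.3 CPM, while its relative Ank2 fell 2.63-fold from 24.3 ± 4.29 to 9.24 ± 0.336 CPM. Ahnak, a large scaffold gene, rose 1.84-fold. The β-dystrobrevin gene Dtnb rose 4.54-fold from a low level, with 2 to 8 reads per control library and 15 to 32 per septic library. Adjusted p-values for these 4 were at most 0.00153.

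Of the remaining partners, Cav3, which encodes the caveolin of muscle membranes, fell 2.67-fold, with 45.2 ± 3.43 CPM in controls, 17.0 ± 9.56 CPM in sepsis and an adjusted p of 0.00533. Its lowest library was sepsis 3, at 5.94 CPM. The epsilon-sarcoglycan gene Sgce fell 2.95-fold. Mapk12, a muscle kinase that binds syntrophin, fell 1.48-fold. It did not pass when scaled by library totals, at a log2 fold change of -0.15. Nos1, the nitric oxide synthase that the complex holds at the sarcolemma, had 58.4 to 84.1 CPM in controls and 58.0, 32.4 and 7.99 CPM in sepsis. Its log2 fold change of -1.23 (SE 0.50) did not pass, at an adjusted p of 0.0770, but it passed without robust estimation at 0.0254, without sepsis 1 at 0.0121 (log2 -1.91) and without sepsis 3 at 0.0121 (log2 -0.77). Sgcz, Sntg1 and Kcnj10 had no read, which allows up to 3 reads per library.

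Genes that glycosylate dystroglycan moved in both directions. Of 20 listed 17 were tested, of which 7 fell, 2 rose and 8 did not pass, with a median log2 fold change of -0.16. Over all genes tested, 25.2% were called lower and 25.2% higher. Among those that fell were Pomgnt2 and Pomk, which extend and phosphorylate the core sugar chain, from 11.2 ± 1.40 to 2.74 ± 1.64 CPM and from 4.72 ± 0.954 to 1.14 ± 0.304 CPM. Gmppb, which supplies GDP-mannose, fell 2.02-fold from 51.1 ± 8.40 to 25.2 ± 1.61 CPM. Adjusted p-values for these 3 lay between 0.000136 and 0.000498. The genes that rose were Dpm1 and Dpm2, subunits of dolichol phosphate mannose synthase, named after their values were seen, with adjusted p-values of 0.00357 and 0.0495. The number higher was 1 without control 1, 2, 4 or 5 or without any 1 septic library, and 5 with library totals alone.

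On the matrix side, 15 of 16 genes of laminin and its basement membrane partners were tested. Of these 6 fell and 3 rose, against 25.2% of all genes tested in each direction. Their median log2 fold change was -0.47. Lama2, the laminin α2 chain that dystroglycan binds in muscle, fell 2.42-fold, with 19.2 ± 1.72 CPM in controls, 8.03 ± 2.72 CPM in sepsis and an adjusted p of 0.000305. Nid1, which bridges laminin and collagen IV, fell 1.96-fold, and the collagen VI genes Col6a1 and Col6a2 fell 6.26-fold and 6.43-fold. Without sepsis 2 the log2 fold change of Col6a1 went from -2.65 to -3.40. The genes that rose were Col4a1, Col4a2 and Lama5, named after their values were seen, by 1.38-fold, 1.51-fold and 1.62-fold. Their adjusted p-values were 0.00779, 0.00557 and 0.0449, and the groups of Lama5 overlapped. The number higher was 2 without control 1, 2 or 3 or without sepsis 3, and 4 without sepsis 2. With library totals alone 5 were higher. Among markers of fibroblasts, the cells that make collagen VI, 9 of 10 fell (8 with library totals alone, where 1 rose). Their summed level was 1357 to 2899 CPM in controls and 314 to 500 CPM in sepsis, with no marker at 0. The highest control was control 1, and the others had at most 1820 CPM. The part of such cells in the matrix result was not tested.

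Costamere and integrin genes moved in both directions. Of 27 listed 22 were tested, of which 9 rose and 4 fell, with a median log2 fold change of 0.18. Each direction held 25.2% of all genes tested. Xirp1 and Flnc, which encode the stress-responsive Xin and filamin C, rose 7.72-fold and 6.95-fold. Synm, which encodes the intermediate filament protein synemin that binds dystrophin and dystrobrevin, fell from 1001 ± 73.7 to 215 ± 2.77 CPM, and Tln2, the muscle-enriched talin gene, fell 2.66-fold. Adjusted p-values for these 4 were at most 4.56e-06. For the laminin-binding integrin of muscle, the β1 gene Itgb1 rose 1.52-fold with an adjusted p of 0.00135. The α7 gene Itga7 had 28.7 ± 6.06 and 29.9 ± 13.8 CPM, and its log2 fold change of 0.06 (SE 0.30) was negative without control 3 (-0.03), sepsis 1 (-0.13) or sepsis 2 (-0.16).

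In the list of membrane repair and caveolae, 18 of 20 genes were tested. Of these 4 rose, 3 fell and 11 did not pass, against 25.2% of all genes tested called in each direction. Their median log2 fold change was 0.22. The annexin genes Anxa4 and Anxa7 rose 3.83-fold and 3.03-fold, and S100a10, the partner of annexin A2, rose 1.55-fold. The groups of S100a10 overlapped, and its call was lost without sepsis 2, at an adjusted p of 0.0583. Ano5, whose loss causes a limb-girdle dystrophy, fell from 89.6 ± 7.58 to 29.5 ± 13.5 CPM, with an adjusted p of 0.000550. Scaled by library totals, 9 of these genes were called higher and 1 lower, against 4256 and 1387 of all 9810 genes tested.

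**Figure D4:**
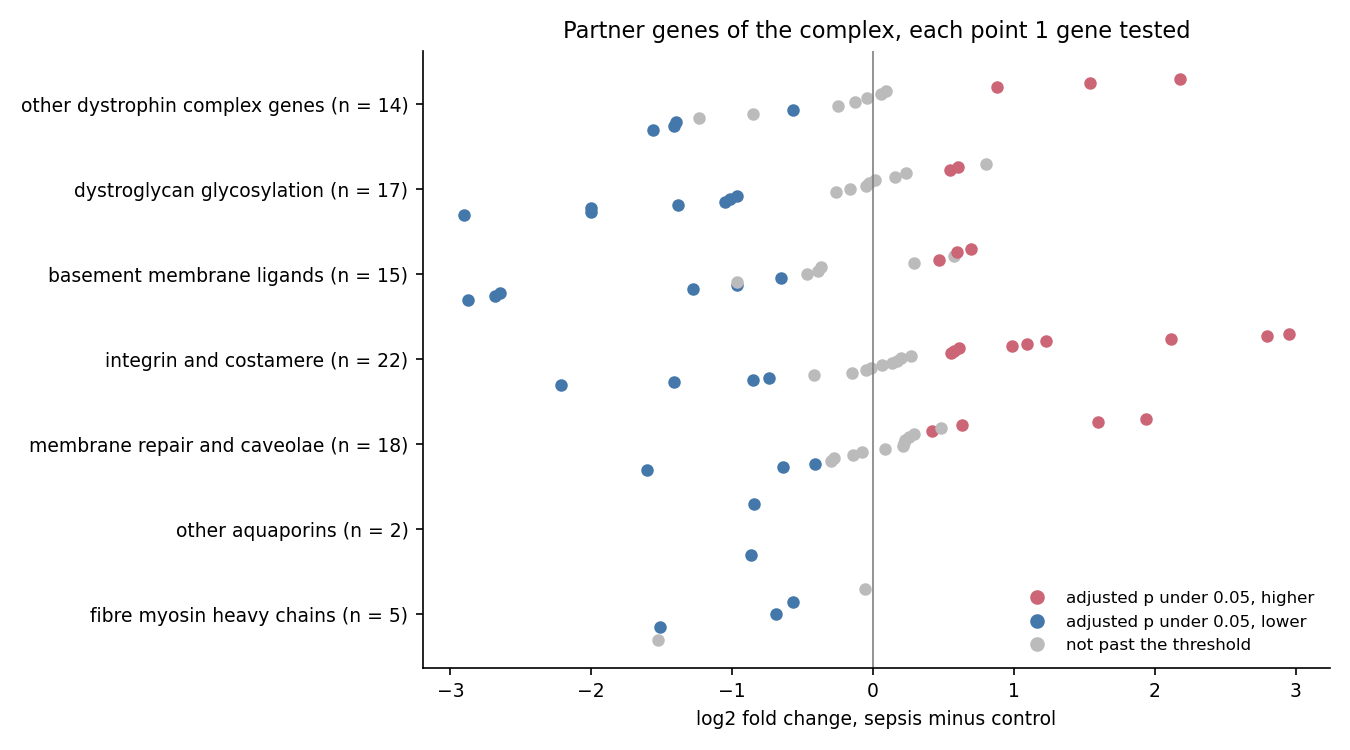
Log2 fold change, sepsis minus control (horizontal axis), of each tested gene outside the set in 7 lists (rows, with the number tested). Red and blue points passed edgeR's test at an adjusted p under 0.05 as higher or lower, grey points did not; each of the first 5 lists holds points of both colours, and the aquaporin and myosin lists hold none that rose.

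Over the 7 lists together, 50 of 93 genes tested were called, 21 higher and 29 lower. That is 53.8%, against 50.4% of all genes tested, so partner genes as a group were called about as often as any other gene.

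Aqp4 was compared with the other aquaporin genes and with genes of fibre type. Of 11 other aquaporin genes only Aqp1 and Aqp7 had enough reads, and both fell. Aqp1, the water channel of capillary endothelium, had 139, 139, 165, 172 and 191 CPM in controls and 98.4, 96.6 and 73.5 CPM in sepsis. The groups did not overlap, and the log2 fold change was -0.85 (SE 0.15) with an adjusted p of 0.000329. Aqp7, a glycerol and water channel, had 5.06 to 8.47 CPM in controls and 2.93, 3.57 and 5.48 CPM in sepsis. Its groups overlapped, and its log2 fold change of -0.87 (SE 0.29) passed at an adjusted p of 0.0226. That call was lost with library totals alone (0.203), without control 2 (0.0508) or 3 (0.0505), and without sepsis 1 (0.0784) or 2 (0.0680). Aqp11 had 2 to 6 reads in each library of both groups and was not tested. Aqp3, Aqp6, Aqp9 and Aqp12 had no read. Endothelial markers, which mark the cells that carry Aqp1, moved both ways: 5 of 10 rose and 2 fell (7 and 0 with library totals alone). Their summed level overlapped between the groups, at 230 to 278 CPM in controls and 247 to 337 CPM in sepsis. The part of endothelial cells in the level of Aqp1 was not tested.

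The myosin heavy chain genes, which mark fibre types, were also described. Myh4, the fast IIB gene, made up 94.0 to 94.8% of adult myosin reads in controls and 95.8, 93.3 and 97.7% in sepsis 1 to 3. Sepsis 2 lay below the control range of this share and sepsis 1 and 3 above it. Of 5 myosin genes tested 3 fell and none rose, against 25.2% of all genes tested in each direction. Myh4 fell by 0.57, Myh1 by 0.69 and Myh2 by 1.51 on the log2 scale, with adjusted p-values of 0.00389, 0.00128 and 0.0105. With library totals alone none of these 3 passed. The slow gene Myh7 had -0.06 (adjusted p 0.875), which was positive with library totals alone (0.35), without control 3 (0.03) or 4 (0.02), and without sepsis 3 (0.21). The perinatal gene Myh8 had -1.53 (adjusted p 0.266), a value that rests on control 1: without it the log2 fold change was -0.02 (adjusted p 0.964). Control 1 had 39.1 CPM, the other controls 3.19 to 4.71 CPM and the septic libraries 2.51 to 5.32 CPM.

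The likeness of profiles was measured as the root mean square difference of log2 CPM over the 8 libraries, each gene centred on its own mean, among 6867 genes. Nearest to Dmd were Rnf6, a ubiquitin ligase gene, at 0.0460, Nfe2l1, a gene for a factor that induces proteasome genes, at 0.0692 and the splicing factor gene Srsf10 at 0.0814. Rnf6 had 64.1 ± 4.20 CPM in controls and 87.1 ± 15.9 CPM in sepsis. Within the set, Sgcb (0.167), Dtna (0.186) and Dag1 (0.216) lay nearer to Dmd than Sgca (0.449), and Sspn lay at 1.27. Nearest to Aqp4 were Casq1, which encodes the calcium-binding protein of the fast sarcoplasmic reticulum, at 0.268, Igfbp5 at 0.403 and Cited4 at 0.416. Casq1 had 1059 ± 59.0 CPM in controls and 49.8 ± 8.66 CPM in sepsis, and Igfbp5 had 515 ± 68.9 and 11.8 ± 1.82 CPM. The distances to Aqp4 rest on septic libraries with 0 or 1 read and so on the prior count of 2 added before taking logs; with 0.5, 2 of its 3 neighbours were the same.

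Markers of the other cell types a calf muscle can hold also moved, where 25.2% of all genes tested were called in each direction. With library totals alone, 4256 of 9810 genes tested were called higher and 1387 lower. Leukocyte markers rose in 7 of 10 (10 with library totals alone), from 64.0 to 158 CPM in controls to 318 to 562 CPM in sepsis. The highest control was control 1, and the others had at most 78.2 CPM. Schwann cell markers fell in 5 of 8 (3 with library totals alone), smooth muscle and pericyte markers in 3 of 9 (1 with library totals alone, where 2 rose), and tendon markers in 5 of 6, with the tendon gene Kera at 0 in sepsis. Of 5 satellite cell markers 1 rose and 3 fell (2 with library totals alone). Schwann cells carry dystroglycan and leukocytes carry annexins, and their part in the levels of Dag1 or of the annexin genes was not tested.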

How the data were processed

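The authors deposited counts per gene from QuantSeq 3′ libraries made from 25 ng of total RNA, per the labels, on GRCm39, per the submitters' processing notes. The aligner, counter, strand setting and annotation are not given in the sources used here. Libraries held 3086277 to 4016329 counts. From these counts, edgeR 4.0.16 (R 4.3.3) computed CPM with TMM factors (0.887 to 0.908 in controls, 1.13 to 1.30 in sepsis) and a robust quasi-likelihood test on 9810 genes after filterByExpr (minimum count 10, total 15). P-values were Benjamini-Hochberg adjusted over all of them, with a threshold of 0.05. The SE is the log2 fold change divided by the root of F. Intervals are exact, and a count of 0 allows 3 reads. Both cover counting error only. Members and lists were chosen with earlier results of these data known.

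Named were all 8 members, Utrn, the 4 genes of smallest p in each list, all myosin and aquaporin genes with at least 10 reads, and the 3 profiles nearest to Dmd and to Aqp4. Sgce, Nos1, Cav3, Mapk12, Itgb1, Itga7, Dpm1, Dpm2, Col4a1, Col4a2 and Lama5 were added after their values were seen. Some genes that enter the list counts are not reported here by name. Alternatives were other scaling factors, no filter, no robust estimation, DESeq2 1.42.0, a replicate block and each library left out. The test was tried on simulated data. Promoters came from RefSeq on GRCm38.p6, and no coordinates were carried between builds.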

Additional observations from a re-analysis of the deposited data

Results flagged for a closer look

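Among 49 genes checked, a control library stood far from the other 4 in 3 genes, where chance alone sets apart about 5% of groups. Dtnb was at 2.55 CPM in control 5, with the nearest other control at 0.942 CPM and the lowest at 0.555 CPM. The perinatal and embryonic myosin genes stood out in control 1: Myh8 at 39.1 CPM against at most 4.71 CPM in the other controls, and Myh3 at 31.6 CPM against at most 3.50 CPM. No gene of the dystrophin and Aqp4 set stood out in this way.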

How the results depend on the processing

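With library totals alone, log2 fold changes were 0.82 for Dmd, -0.064 for Sgca, 0.52 for Sgcb, 0.023 for Sgcd, 0.94 for Dag1, 0.96 for Dtna, -1.81 for Sspn and -6.73 for Aqp4. The calls were 4256 genes higher and 1387 lower, or 75.4% higher against 50.1% with TMM. That scaling gave 5 higher in the other complex genes, 5 in glycosylation, 5 in the basement membrane and 9 in membrane repair (1 lower), 1 aquaporin lower, 0 myosins lower and 36 higher over the lists together. Glycosylation had 1 higher with upper-quartile factors, with no expression filter, with DESeq2 and in the block. DESeq2 put Aqp4 at -7.50. Leaving out each library gave -8.73 to -6.57 for Aqp4, -0.72 to -0.33 for Sgca, -0.068 to 0.27 for Sgcb, -0.71 to 0.013 for Sgcd, 1 to 2 glycosylation genes higher and 1 to 2 aquaporins lower. It also turned the sign of Utrn (-0.13 to 0.25), Itga7 (-0.16 to 0.41) and Myh7 (-0.46 to 0.21) at one end of each range. With totals Myh7 was at 0.35. Deviations of same-numbered libraries had correlations of -0.124, 0.0409 and -0.0196, against -0.0923 to 0.129 for differently numbered ones. So few same-numbered pairs cannot decide whether the numbers pair the libraries. With the replicate block, calls were 1741 higher and 1884 lower over all genes, 13 higher over the lists together, 0 in the basement membrane and 2 in membrane repair, and Dmd, Dtna and Sgca lost theirs. Sspn had -2.18 in the block. Between TMM and library totals only the scaling differed. The block left fewer residual degrees of freedom. Controls 4 and 5 share their number with no septic library, so they added nothing to the group difference in the block. The part of each in the shifts of the block was not tested, nor was the cause of the other shifts. Depth limits Sgcd, Dtnb and septic Aqp4.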
